A study of Mus musculus with 6 samples.

Results

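Tspan4, Tspan11, Tspan12, Tspan13 and Tspan15 are 5 genes of the tetraspanin superfamily. Their array values lay far apart between 2 kinds of cultured cells from mouse prostates. The genes were chosen by name, with their difference between the 2 kinds of cells already known. Each had 1 row of its own among 9490 genes with a value. Their levels and the differences between the groups are therefore given as a description, with no test. The table held rows for 17 of 31 superfamily genes looked for, so 12 other tetraspanins served as background.

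Expression was measured on 6 single-colour oligonucleotide arrays. The RNA came from cancer stem-like cells grown without serum, with EGF and FGF2 in the medium. All cells came from prostates of TRAMP mice, in which the probasin promoter drives the early region of SV40 in prostate epithelium, so both groups carry the transgene. The mice behind the 3 TPIN samples had intraepithelial neoplasia and were aged 10 to 11 weeks. By title and cell type label, the 3 TNE samples came from mice with neuroendocrine tumours, whose age the labels do not give. A free-text field names intraepithelial neoplasia for all 6 samples, TNE included. There was no sample from a mouse without the transgene. The labels do not state that replicates are different animals or different cultures, so every p-value refers to the spread among these arrays, some of which could be technical.

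Tetraspanins cross the membrane 4 times and expose a small and a large loop outside the cell. They rarely act as receptors themselves. They gather integrins, immunoglobulin-family proteins, proteases and signalling receptors into shared patches of membrane and steer their traffic to the surface, to endosomes and into vesicles. Each member has its own set of partners, and a cell that changes tetraspanins can change where those partners go.

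Over all genes, arrays of different groups correlated at 0.513 to 0.706, TPIN arrays with each other at 0.835 to 0.901, and TNE arrays at 0.813 to 0.912. In both groups replicate 3 stood apart from the others. TNE replicate 3 correlated at 0.813 and 0.859 with the other TNE arrays, which correlated at 0.912 with each other, and TPIN replicate 3 at 0.835 and 0.836, against 0.901. Of all genes, 16.6% lay more than 1 from the mean of the other 2 arrays on TNE replicate 3 and 17.6% on TPIN replicate 3. Without TPIN replicate 3 the log2 differences of the 5 genes were -2.26 for Tspan4, -2.74 for Tspan11, 3.39 for Tspan12, 4.95 for Tspan13 and 3.74 for Tspan15. The mean over 14 measured fibroblast and smooth muscle markers, of 16 looked for, ranged from 11.46 to 11.83 in TPIN and from 7.72 to 8.61 in TNE, with no row for Vim or Myh11. For 6 measured neuroendocrine markers, of 14, the mean ranged from 7.99 to 8.54 in TPIN and from 9.30 to 10.89 in TNE, and Chga and Syp had no row. The difference of these means was 1.81, or 1.37 without TNE replicate 3 and 1.74 without TPIN replicate 3. The 6 markers did not move as one. Snap25, Uchl1, Syt1 and Elavl4 were higher in TNE by 1.99 to 3.66, whereas Ncam1 differed by 0.04 and Eno2 by -0.79. Epithelial identity could be read from Krt8 and Krt18 alone, with means of 8.06 to 8.14 in TPIN and 7.47 to 7.70 in TNE, since Epcam, Cdh1, Krt5, Trp63 and 10 further markers had no row. All values are log2 expression, on which a difference of 1 is a doubling, and none is a true zero. In cultures measured in bulk, fewer cells that express a gene and less RNA per cell cannot be told apart. The part that the makeup of the cultures has in the differences below was not tested.

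The 3 tetraspanins that were higher in TNE are shown first by the 250 bases before their start sites, because they moved together, and Tspan11 is set beside them as the member with the largest difference the other way. The sequences are RefSeq's, build GRCm38.p6, written 5′ to 3′ on the gene's strand. Capitals mark every match, on either strand, to 5 short motifs, and no match overlaps another. One is the TATA box, searched as TATAAA. The GC box was searched as GGGCGG. The CCAAT box was searched by its name. The E-box was searched as CANNTG. The AP-1 motif was searched as TGANTCA. Tspan13 lies at chr12:36042479-36042728 on the minus strand, Tspan15 at chr10:62231219-62231468 on the minus strand, Tspan12 at chr6:21852534-21852783 on the minus strand and Tspan11 at chr6:127887372-127887621 on the plus strand.
Tspan13: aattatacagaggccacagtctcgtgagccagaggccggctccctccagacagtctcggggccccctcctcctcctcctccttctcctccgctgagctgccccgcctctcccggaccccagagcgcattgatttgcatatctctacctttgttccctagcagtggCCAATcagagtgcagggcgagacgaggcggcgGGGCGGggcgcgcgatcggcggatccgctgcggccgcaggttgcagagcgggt
Tspan15: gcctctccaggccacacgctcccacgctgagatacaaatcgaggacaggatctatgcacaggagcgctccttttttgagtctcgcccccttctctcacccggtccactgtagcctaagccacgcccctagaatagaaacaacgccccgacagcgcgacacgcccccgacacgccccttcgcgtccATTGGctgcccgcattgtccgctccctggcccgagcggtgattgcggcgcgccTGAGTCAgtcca
Tspan12: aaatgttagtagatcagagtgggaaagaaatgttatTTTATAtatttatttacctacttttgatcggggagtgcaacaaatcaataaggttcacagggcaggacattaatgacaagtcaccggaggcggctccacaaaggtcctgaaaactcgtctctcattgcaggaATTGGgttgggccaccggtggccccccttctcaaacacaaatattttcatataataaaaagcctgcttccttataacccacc
Tspan11: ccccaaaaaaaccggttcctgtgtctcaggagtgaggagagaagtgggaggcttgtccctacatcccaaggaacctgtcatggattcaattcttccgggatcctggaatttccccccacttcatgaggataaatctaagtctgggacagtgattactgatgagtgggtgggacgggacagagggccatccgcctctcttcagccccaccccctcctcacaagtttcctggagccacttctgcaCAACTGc

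All 5 genes matched the RefSeq promoter table, with 6 promoters, since Tspan4 has 2 start sites there. The promoters of the 3 genes higher in TNE differed in base composition. Tspan13 and Tspan15 were rich in CpG, with 21 and 23 CpG and a GC content of 66.0% and 63.2%, whereas Tspan12 had 5 CpG and 42.0% GC. The median over 32851 mouse promoters was 6 CpG and 52.4% GC. A CCAAT match was the 1 motif found in each of these 3, starting 85 bases before the start site in Tspan13, 65 in Tspan15 and 82 in Tspan12, and 33.8% of all promoters held one. Tspan15 alone had the AP-1 motif (6.75% of all promoters), 12 bases before its start. Tspan12 alone had a TATAAA match (12.4%), on the opposite strand and 214 bases before its start. Tspan11 had 4 CpG, 54.0% GC and a lone E-box, a motif held by 66.2% of promoters. The first Tspan4 start site had 24 CpG, 68.0% GC, 2 GC boxes (32.7% of promoters hold one) and 2 E-boxes, and the second had 8 CpG, 63.2% GC and 2 E-boxes. The arrays do not read promoters, so these matches describe the letters alone.

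Among the 5 genes, Tspan13 showed the widest separation between the groups. Some work ties it to an N-type calcium channel, whose pore subunit is encoded by Cacna1b. Its row (10400023) had log2 values of 7.48, 7.06 and 7.80 in TPIN and of 12.03, 12.52 and 12.11 in TNE. The lowest TNE array lay 4.22 above the highest TPIN array, an 18.7-fold gap, and replicates lay close together in both groups. The group means were 7.45 ± 0.37 (SD, n = 3) in TPIN and 12.22 ± 0.27 (SD, n = 3) in TNE. The log2 difference of 4.77 (SE 0.31) made it 27.3-fold higher in TNE. Only 2 of the 9490 genes had a larger difference in that direction. Cacna1b averaged 7.62 ± 0.47 over the TPIN arrays and 8.35 ± 0.81 over the TNE arrays (limma adjusted p = 0.266).

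Tspan15 belongs to the TspanC8 group, tetraspanins that carry the protease ADAM10 out of the endoplasmic reticulum and to its substrates. Its row (10369531) had 6.94, 6.50 and 6.73 in TPIN and 11.29, 11.49 and 8.62 in TNE. All TNE arrays were above all TPIN arrays, but TNE replicate 3 lay 2.78 below the mean of the other two, and only 1.19% of all genes were as far off on that array. The means were 6.73 ± 0.22 (SD, n = 3) in TPIN and 10.47 ± 1.61 (SD, n = 3) in TNE. The log2 difference was 3.74 (SE 0.71), or 13.4-fold. Without TNE replicate 3 the log2 difference was 4.67, and it was 3.33 and 3.23 without TNE replicates 1 and 2.

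Tspan12 is a partner of the receptor Frizzled-4 and strengthens its response to the ligand norrin in retinal vessels. It had log2 values of 6.82, 5.83 and 6.95 in TPIN and 10.66, 9.99 and 8.48 in TNE (row 10543306). TNE replicate 3 was again the lowest TNE array, 1.84 below the mean of the other two, yet 1.53 above the highest TPIN array. The means were 6.53 ± 0.62 (SD, n = 3) and 9.71 ± 1.11 (SD, n = 3), a log2 difference of 3.18 (SE 0.58), or 9.06-fold higher in TNE. Without TNE replicate 3 the difference was 3.79, and without TNE replicate 1 it was 2.71.

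Tspan11, a member of which less is known, was the mirror image of Tspan13 in its tight replicates. It had 10.57, 10.09 and 10.48 in TPIN against 7.75, 7.50 and 7.53 in TNE (row 10542066). The groups were separated by 2.34, and each array of TNE lay within 0.23 of the mean of the other two. The means were 10.38 ± 0.26 (SD, n = 3) in TPIN and 7.59 ± 0.13 (SD, n = 3) in TNE. The log2 difference of -2.79 (SE 0.27) made it 6.90-fold lower in TNE.

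Tspan4 is known for building migrasomes, the large vesicles that migrating cells leave behind on their retraction fibres. Its row (10558961) had 12.65, 12.05 and 11.43 in TPIN and 10.96, 10.39 and 8.91 in TNE. The groups came closest here: the lowest TPIN array was 0.47 above the highest TNE array, a 1.38-fold gap. The means were 12.04 ± 0.61 (SD, n = 3) and 10.09 ± 1.06 (SD, n = 3), a log2 difference of -1.96 (SE 0.56), or 3.88-fold lower in TNE. That difference was -1.37 without TNE replicate 3, which lay 1.77 below the mean of the other two, and -2.39 without TNE replicate 1.

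**Figure D1:**
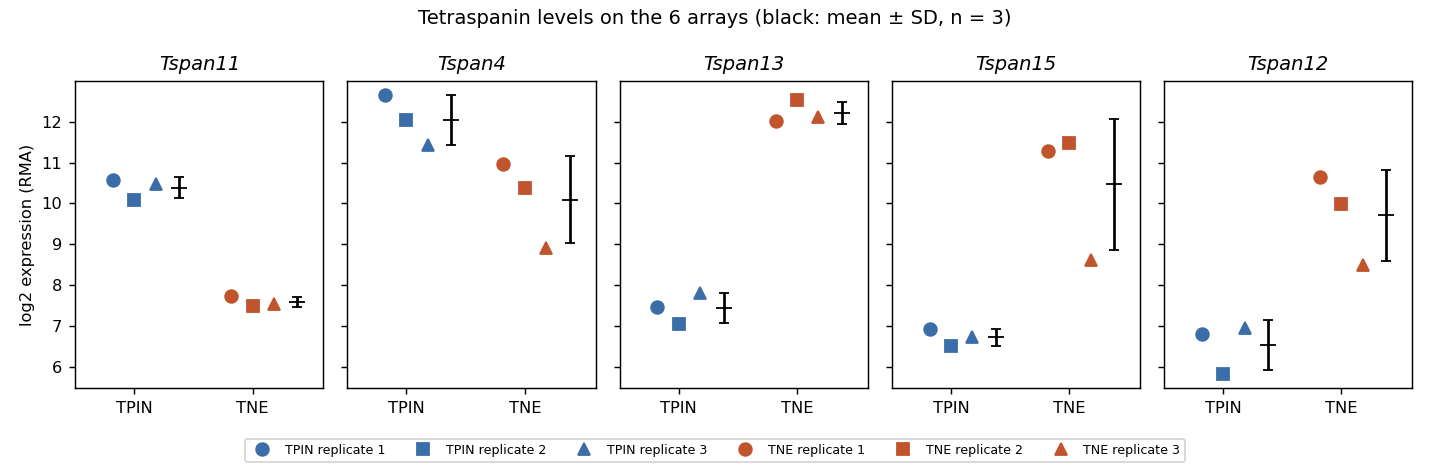
Log2 expression (RMA, vertical axis) of the 5 tetraspanins on each of 3 TPIN arrays (blue) and 3 TNE arrays (orange), with marker shapes for replicates 1 to 3 and the mean ± SD in black. Tspan11 and Tspan13 have tight replicates in both groups, and TNE replicate 3 (triangle) is the lowest TNE array for Tspan4, Tspan15 and Tspan12; heights are not compared between genes.

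The groups did not overlap for any of the 5 genes, with 3 above and 2 below in TNE, against 43.8% of all genes (23.3% above and 20.5% below). The 5 were chosen on this contrast, so nothing is read from their count. The 5 genes fell into 2 kinds of pattern apart from direction. In TNE the SD was 0.27 for Tspan13 and 0.13 for Tspan11, and it was between 1.06 and 1.61 for Tspan4, Tspan12 and Tspan15. These last 3 had their lowest TNE value in replicate 3, whether the gene was higher or lower in TNE as a group.

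Tspan15 and Tspan12 followed each other most closely of the 10 pairs. After each gene was centred on its own mean, the root-mean-square distance between them was 0.55 over the 6 arrays, with r = 0.974. Tspan13 was farther from both, at 1.03 from Tspan15 and 1.04 from Tspan12. Tspan4 and Tspan11 were 0.79 apart, with r = 0.827. These correlations are dominated by the difference between the groups that chose the genes, and the arrays are shared.

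None of the 12 other measured tetraspanins passed limma's threshold, an adjusted p under 0.05 over all genes, which 20.5% of the 9490 genes did. At an unadjusted p under 0.05 there were 3, Tspan9, Tspan17 and Cd63, all lower in TNE. These were also the 3 of 12 (25%) whose groups did not overlap, against 43.8% of all genes. The share of all genes at that unadjusted p was not counted, so nothing is read from the 3. With an intensity trend and robust moderation the counts at the adjusted and unadjusted thresholds were again 0 and 3. The differences of the 12 ran from -1.62 to 1.45, with a median of -0.54 against -0.02 over all genes, and 4 were positive. Being named with these results in view, the 5 members and the 12 others were separated partly by the values themselves.

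The other 3 measured genes of the TspanC8 group, partners of ADAM10 like Tspan15, did not pass. Tspan5 had 10.23, 9.59 and 10.37 in TPIN against 10.05, 10.32 and 10.81 in TNE (limma adjusted p = 0.482). Tspan14 had 9.49, 9.39 and 10.23 against 9.97, 9.51 and 9.24 (limma adjusted p = 0.794). For both of these the groups overlapped. Tspan17 had 10.03, 9.32 and 9.10 in TPIN and 8.18, 8.81 and 7.99 in TNE, differing by -1.16 on the log2 scale (SE 0.36, limma adjusted p = 0.0563). Without TPIN replicate 3 Tspan17 passed (limma adjusted p = 0.0450). Tspan10 and Tspan33, also of this group, had no row.

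The classical tetraspanins of the cell surface and endosomes gave differences in both directions. Cd63, a marker of late endosomes and the vesicles they release, had 11.27, 11.52 and 11.05 in TPIN and 10.58, 10.11 and 8.28 in TNE, differing by -1.62 on the log2 scale (SE 0.56, limma adjusted p = 0.0755). It passed without TNE replicate 1 (limma adjusted p = 0.0378). Cd82, studied as a suppressor of metastasis in prostate cancer, had 10.87, 11.71 and 11.98 against 11.16, 10.68 and 9.45 (log2 difference -1.09, limma adjusted p = 0.147). Cd9, a partner of integrins and of Ptgfrn, had 10.40, 10.22 and 12.29 in TPIN and 12.28, 11.95 and 10.99 in TNE (log2 difference 0.77, limma adjusted p = 0.364). TPIN replicate 3 stood with the TNE arrays for Cd9, and without it the difference was 1.43 (limma adjusted p = 0.0542). Without TNE replicate 3 the differences were -0.94 for Cd63, -0.59 for Cd82 and 1.15 for Cd9, none past the threshold. Cd81 and Cd151 had no row.

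Tspan9, Tspan6 and Tspan2 had log2 differences of -0.98, -0.97 and 1.45, with limma adjusted p of 0.0804, 0.228 and 0.172. Tspan2, known from oligodendrocytes, reached 10.37 on TNE replicate 3 against 8.49 and 7.88 on the other TNE arrays. Tspan6 stood highest there too, at 11.10 against 9.65 and 9.40. Without TNE replicate 3 the difference was 0.73 for Tspan2 and -1.49 for Tspan6 (limma adjusted p = 0.394 and 0.0794). The tissue-restricted Upk1b, of the bladder urothelium, and Rom1, of photoreceptor discs, differed by -0.24 and 0.22 (limma adjusted p = 0.602 and 0.618).

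Cd53, a tetraspanin of leukocytes, varied most of the 17 within TNE. It had 8.92, 8.30 and 7.93 in TPIN and 5.93, 6.65 and 10.03 in TNE, so TNE replicate 3 was the highest of all arrays and the other two the lowest. It differed by -0.85 on the log2 scale (SE 0.96, limma adjusted p = 0.531), and without TNE replicate 3 it passed (limma adjusted p = 0.0198). Of 10 leukocyte markers, 2 had a row, Cd68 and Lyz2. Lyz2, lysozyme of macrophages, had 9.39 on TNE replicate 3 and 5.73 to 6.99 on the other 5 arrays, and Cd68 had 9.36 there and 7.53 to 8.56 elsewhere. Ptprc, Cd3e, Itgam, Adgre1 and Csf1r had no row. The part of such cells in the values of TNE replicate 3 was not tested.

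**Figure D2:**
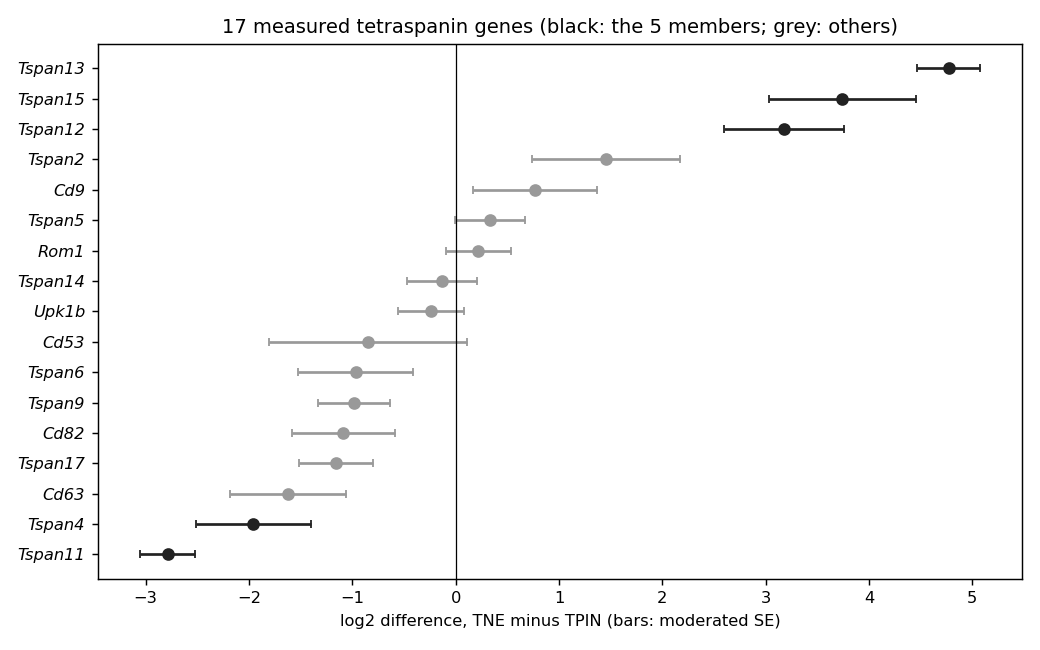
Log2 difference, TNE minus TPIN (horizontal axis), with its moderated SE as bars, for the 17 tetraspanin genes with a row, ordered by size. Black points are the 5 members, from -2.79 for Tspan11 to 4.77 for Tspan13, and grey points are the 12 others, from -1.62 for Cd63 to 1.45 for Tspan2.

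On TNE replicate 3, 9 of the 17 tetraspanins lay more than 1 away from the mean of the other 2 TNE arrays, as did 16.6% of all genes. Tspan15, Cd63, Tspan12, Tspan4, Cd82 and Cd9 lay below by 1.12 to 2.78, with Tspan15 farthest. Cd53, Tspan2 and Tspan6 lay above by 3.74, 2.18 and 1.57. For Tspan13 and Tspan11 the distances were -0.17 and -0.09, and 78.0% and 88.3% of all genes were at least as far off on that array. On TNE replicate 1, 6 of the 17 lay more than 1 away from the mean of the other 2, as did 13.1% of all genes. That mean includes TNE replicate 3, so these distances do not show scatter of replicate 1 itself. The 6 were Tspan4, Tspan12, Tspan15, Cd53, Cd63 and Cd82, all also more than 1 away on replicate 3. For each, TNE replicates 1 and 2 lay closer to each other than to replicate 3. Tspan15 had 11.29 and 11.49 against 8.62, and Cd53 had 5.93 and 6.65 against 10.03.

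**Figure D3:**
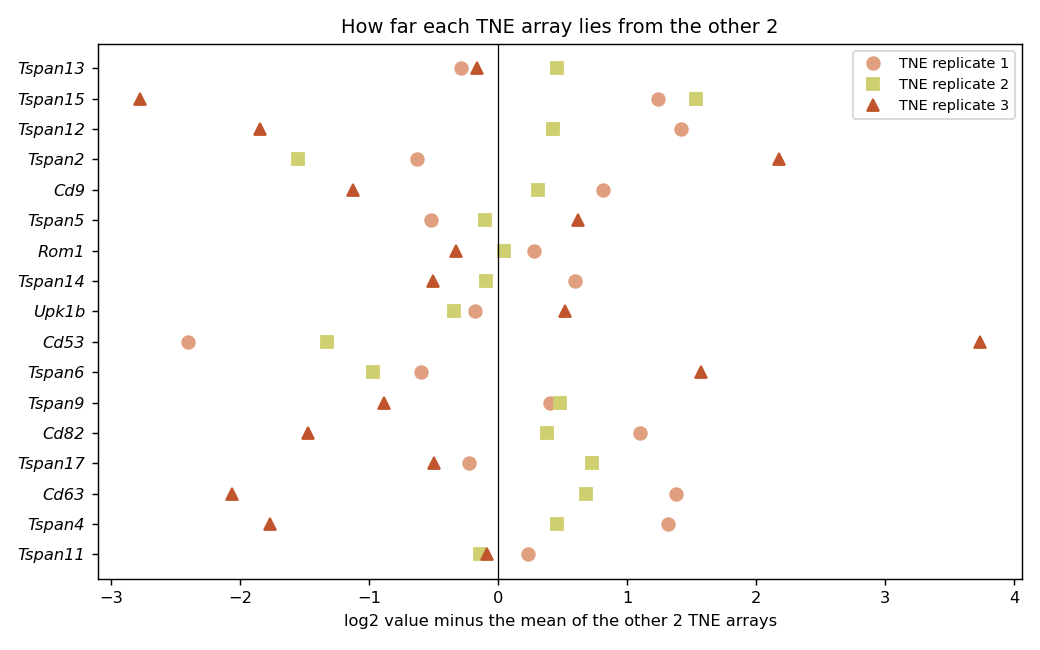
Distance of each TNE array from the mean of the other 2 TNE arrays (horizontal axis, log2), for the 17 tetraspanins in the order of their group difference. TNE replicate 3 (dark triangles) lies 2.78 below for Tspan15 and 3.74 above for Cd53, and within 0.17 of zero for Tspan13 and Tspan11.

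Of 15 measured genes for proteins that tetraspanins hold in the membrane, 4 had lower RNA levels in TNE past the threshold and none rose. Of all genes, 10.2% fell and 10.3% rose. This list and those below were chosen with earlier results of these data known, so the shares are a description. The median log2 difference of the 15 was -0.22. Egfr, the EGF receptor, whose traffic CD82 is known to alter, fell by 4.36 on the log2 scale, from 11.68 ± 0.17 in TPIN to 7.32 ± 0.25 in TNE (limma adjusted p = 0.000274). Mmp14, a membrane-bound matrix metalloproteinase, had 11.84, 11.62 and 12.70 against 9.37, 7.99 and 8.38 (log2 difference -3.47, limma adjusted p = 0.00309). Itga5, a chain of an integrin that binds fibronectin, had 11.66, 11.99 and 11.15 against 8.75, 8.64 and 7.77 (log2 difference -3.21, limma adjusted p = 0.00214). These 3 kept their calls in all 10 alternatives. Ptgfrn, an immunoglobulin-family partner of CD9 and CD81, fell by 1.65 (limma adjusted p = 0.0155) and lost its call without TPIN replicate 1 or 2. The laminin receptor chain Itga6 had 8.01, 7.46 and 10.64 in TPIN and 11.51, 11.76 and 10.10 in TNE, so the groups overlapped (limma adjusted p = 0.0735), and it passed without TPIN replicate 3 (limma adjusted p = 0.0140). Its relative Itga3 had a log2 difference of 1.22 (limma adjusted p = 0.161) and passed without TNE replicate 3 (limma adjusted p = 0.0291). On these arrays the mean of the fibroblast markers ranged from 11.46 to 11.83 in TPIN and from 7.72 to 8.61 in TNE, and its part in these falls was not tested.

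Adam10, the protease that Tspan15 escorts, did not pass. Its values were 10.18, 10.10 and 10.88 in TPIN and 11.38, 10.43 and 10.45 in TNE, overlapping, and differed by 0.37 on the log2 scale (SE 0.37, limma adjusted p = 0.486). Of 19 measured genes for ADAM10 and its substrates, 1 rose, 2 fell and 16 did not pass, with a median difference of 0.04. Over all genes 10.3% rose and 10.2% fell. Cdh5, cadherin of vessels, rose by 1.62 (from 6.78 ± 0.17 to 8.40 ± 0.53, limma adjusted p = 0.0151). The mean of the 5 endothelial markers with a row, of 9 looked for, which include Cdh5, ran from 7.83 to 8.37 in TPIN and from 6.82 to 7.91 in TNE. The chemokine Cxcl16 and the receptor Notch2 fell by 2.50 and 1.66 (limma adjusted p = 0.0409 and 0.0441). Cxcl16 lost its call without TPIN replicate 1 or 2 or TNE replicate 2 or 3, and Notch2 lost its call without any 1 array other than TNE replicate 1. N-cadherin (Cdh2), whose cleavage by ADAM10 Tspan15 is known to favour, had 9.71, 10.38 and 6.43 in TPIN and 10.50, 10.65 and 10.38 in TNE. TPIN replicate 3 lay far below, while TPIN replicate 2 and TNE replicate 3 were level to 2 decimals (log2 difference 1.67, limma adjusted p = 0.209). Without TPIN replicate 3 the difference was 0.46 (limma adjusted p = 0.267). Betacellulin (Btc), another substrate, had a log2 difference of -1.17 (limma adjusted p = 0.118) and passed without TPIN replicate 2 (limma adjusted p = 0.0374).

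Fzd4, the receptor that Tspan12 assists, had 7.03, 6.47 and 7.61 in TPIN and 7.87, 7.73 and 7.76 in TNE. The TNE arrays were all higher, as for 23.3% of all genes, by a mean of 0.75 (SE 0.34). The gene did not pass (limma adjusted p = 0.142) except without TPIN replicate 3 (limma adjusted p = 0.0395). Its row was dim, with a mean below the 20th percentile. Ndp, which encodes norrin, had no row, and the co-receptors Lrp5 and Lrp6 had log2 differences of -0.30 and -0.52 (limma adjusted p = 0.452 and 0.227). Of the 11 measured genes of this pathway, 1 rose and 1 fell, against 10.3% and 10.2% of all genes. The median difference of the 11 was 0.15. Both genes that passed encode transcription factors that pair with beta-catenin. Tcf7l2 fell by 1.63 (9.50 ± 0.23 in TPIN, 7.87 ± 0.30 in TNE, limma adjusted p = 0.00866). Lef1 rose by 1.21 (7.02 ± 0.26 against 8.23 ± 0.48, limma adjusted p = 0.0387) and lost its call without any 1 array other than TNE replicate 3.

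Among genes of migrasomes and extracellular vesicles, the setting in which Tspan4 and Cd63 are best known, 2 of 13 fell and none rose. Over all genes 10.2% fell and 10.3% rose. The median difference of the 13 was -0.35. One of the 2 that fell was Itga5, counted above, which is enriched on migrasomes. The other was Cpq, a migrasome marker (11.67 ± 0.28 in TPIN, 9.21 ± 1.53 in TNE, limma adjusted p = 0.0422), whose call ended when TPIN replicate 1, 2 or 3 was left out or when the arrays were quantile-normalized again. Pip5k1a, the lipid kinase that marks the sites where migrasomes form, differed by -0.59 (limma adjusted p = 0.176). Sgms2, the sphingomyelin synthase needed there, had 9.56, 9.18 and 9.15 in TPIN and 10.37, 9.87 and 6.83 in TNE, with TNE replicate 3 far below the rest. Its log2 difference was -0.27 with that array and 0.83 without it (limma adjusted p = 0.827 and 0.123). Sdcbp, which encodes syntenin, a partner of CD63, had 11.79 ± 0.10 and 11.66 ± 0.24 (limma adjusted p = 0.746).

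The genes whose pattern lay nearest to each tetraspanin were found by the same root-mean-square distance, over 6 arrays and leaving out predicted gene models. They were picked on these same values, so their high r and any shared replicate pattern follow from that choice. For Tspan13 they were Lrrn1, a leucine-rich repeat membrane protein (distance 0.42, r = 0.986), the transcription factor Myb (0.58, r = 0.988) and the palmitoyltransferase Zdhhc2 (0.64, r = 0.979). For Tspan15 the nearest was Cadps2, which acts in the release of dense-core vesicles (0.26, r = 0.995). It had 6.08, 5.70 and 5.91 in TPIN and 10.81, 10.90 and 8.49 in TNE, with the same low TNE replicate 3. Bves, a cAMP-binding membrane protein, and Rorb, a nuclear receptor, came next (0.51 and 0.65). Bves was also the second for Tspan12 (0.51), after the repressor Zbtb18 (0.47) and before Ralgps2 (0.58).

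Nearest to Tspan11 were Lima1, an actin-binding protein (0.14, r = 0.995), the glucose transporter gene Slc2a10 (0.18, r = 0.995) and Zfp36, which destabilises messenger RNA (0.19, r = 0.997). Around Tspan4 were Peak1, a pseudokinase of the cytoskeleton (0.16, r = 0.991), Fads3 of the fatty acid desaturase family (0.19, r = 0.989) and Cyb5r3, a cytochrome b5 reductase (0.22, r = 0.984). Peak1 had 12.39, 11.97 and 11.53 in TPIN and 11.19, 10.43 and 8.75 in TNE. Being picked for its nearness, it shared with Tspan4 both the narrow gap between the groups and the low TNE replicate 3.

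**Figure D4:**
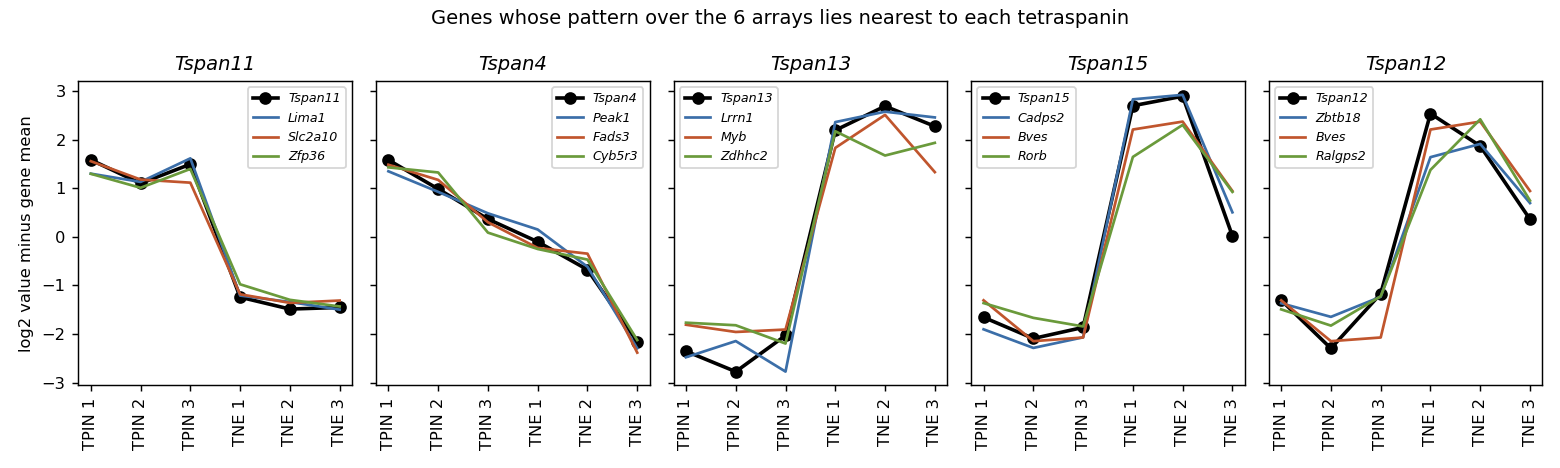
Log2 value minus the gene's own mean (vertical axis) on the 6 arrays for each tetraspanin (black) and the 3 genes nearest to it by root-mean-square distance (colours); lines guide the eye, since replicates have no order. The smallest distance was 0.14, between Tspan11 and Lima1, and Cadps2 lay 0.26 from Tspan15.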

How the data were processed

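Values are log2 expression from 6 arrays. Per the submitters' processing notes, the authors made the deposited log2 values with RMA, a method that corrects background, aligns the distributions of the arrays and narrows differences near background. Neither RMA's version nor a genome build was given in the sources used here. Of the array, 10361 rows were in the table, by a selection that is not stated. Without detection calls a low level is not shown to be absence, and the precision is limited by how few arrays there were. Groups were taken from titles, which the cell type labels match, because 1 free-text field gives all 6 samples the same diagnosis. That diagnosis is intraepithelial neoplasia, which for TNE conflicts with the titles and cell type labels. Rows with 1 symbol in the array's annotation (9496) were kept, and the row of highest mean for 6 genes with several, which left 9490 genes, to which adjusted p-values refer. TNE was compared with TPIN by limma 3.58.1 in R 4.3.3 (a mean per group, empirical Bayes, two-sided, Benjamini-Hochberg over all genes, threshold 0.05). The step was also run on simulated data with independent noise and few changed genes. That setting is simpler than these arrays, so nothing is read from it. The members and all gene lists were chosen with earlier results of these data known. Named were the members, all measured superfamily genes, up to 6 genes past and 3 not past the threshold per partner list, and the 3 genes nearest in pattern to each member. Cell type markers, promoter motifs and neighbouring genes stand outside that rule, and motifs and neighbours were added after the data were seen. Alternatives were another quantile normalization, dim rows left out (mean below the 20th percentile), an intensity trend with robust moderation, the row of lowest mean, and each array left out.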

Additional observations from a re-analysis of the deposited data

How the results depend on the processing

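No paired analysis was possible because the labels give no replicate numbers that the groups share. The groups did not overlap for any member, so leaving out 1 array could not reverse a direction, and only the sizes are given. Without each array in turn, the log2 difference ranged from -2.39 to -1.37 for Tspan4 and from -2.93 to -2.69 for Tspan11. It ranged from 2.71 to 3.79 for Tspan12, 4.58 to 4.95 for Tspan13 and 3.23 to 4.67 for Tspan15. With the arrays quantile-normalized again, the differences in that order of genes were -1.81, -2.69, 3.29, 4.93 and 3.89. Leaving out each array moved the number of genes past the threshold between 357 and 1311 that rose and between 475 and 1285 that fell. It was lowest without TNE replicate 2, and the rises were also 386 and 537 without TPIN replicates 1 and 2, the falls 550 and 578. Falls among the 12 other tetraspanins were 0 to 1. Among partners, rises were 0 to 1. For ADAM10 and its substrates, rises were 1 to 2 and falls 0 to 4. For the norrin and beta-catenin genes, rises were 0 to 1 and falls 1 to 3, and for migrasome and vesicle genes falls were 1 to 2. The leukocyte mean difference was -0.044 to 1.26 (0.74 over all arrays), and it was negative without TNE replicate 3. With dim rows left out the rises of the ADAM10 and norrin lists were 0, since Cdh5 and Lef1 were among the rows left out, the falls of the norrin list were 2, and the epithelial and endothelial mean differences were -0.66 and -2.56, over fewer markers. With the arrays quantile-normalized again the falls were 2 for norrin genes and 1 for migrasome genes. Apart from those rows, the cause of these moves was not tested.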

Other observations

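The protein-coding genes next to the 5 tetraspanins on their chromosomes (3 on each side, by the order in RefSeq's table) had a row for 15 of 30. Of these 15, 1 passed limma's threshold, against 20.5% of all genes. Next to Tspan13, Bzw2, a translation regulator, had 9.80, 10.00 and 9.18 in TPIN and 9.96, 10.82 and 10.75 in TNE, and the other measured neighbours, Ankmy2 and Ahr, had log2 differences of 0.55 and 0.09. None of these 3 passed (limma adjusted p = 0.122, 0.246 and 0.881). Tspan9, itself a tetraspanin, is the gene next to Tspan11 and had a log2 difference of -0.98. Polr2l and Chid1, the genes on either side of Tspan4, had log2 differences of -0.26 and -0.37 (limma adjusted p = 0.685 and 0.414), and Cd151, a tetraspanin nearby, had no row. For Tspan15 the only measured neighbour was Hk1, with a log2 difference of -0.23 (limma adjusted p = 0.627).

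Beside Tspan12 the neighbours went both ways. Ing3, a chromatin reader, rose by 0.98 (9.02, 8.87 and 8.40 in TPIN against 9.70, 9.75 and 9.78 in TNE, limma adjusted p = 0.0428), a call lost without any 1 array other than TPIN replicate 3. Cped1, the next gene but one, had 11.82, 11.67 and 12.04 in TPIN and 7.38, 7.44 and 11.91 in TNE, so TNE replicate 3 stood with the TPIN arrays. Its log2 difference was -2.93 (limma adjusted p = 0.0917), and without TNE replicate 3 it was -4.43 and passed (limma adjusted p = 0.000612). On that array Tspan12 itself, at 8.48, stood 1.53 above the highest TPIN value.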
